A study of Owenia fusiformis with 9 samples.

Results

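The testis and the retractor muscle of *Owenia fusiformis*, an annelid, were compared over the transcripts that remained once the most abundant ones of either library had been set aside. The adult RNA-seq series held 9 libraries, 1 for each tissue or body region, and these were 2 of them. Both came from adults labelled male, without any treatment, and the dissection notes name a muscle sample of 1 male, the source of the testis, and another of 1 female. The retractor muscle was taken as that of the male from its label alone. The other 7 libraries served as context, namely blood vessel and head plus chaetae, labelled male (chaetae are the segmental bristles of annelids), and ovary, midgut, body wall, head and tail, labelled female, with head and tail pooled from 5 worms. With 1 library per tissue there was no replicate, so that no test between tissues was made, and tissue, dissection and library cannot be told apart. Values are normalized values, that is, read counts divided by a size factor for each library. A transcript was set aside if it made up over 0.1% of either library's sum, and it was kept if it reached 100 in at least 1 of them. Of 31911 transcripts, 75 were set aside and 21058 were below 100 in both libraries, of which 8210 were listed at 0 in both. The comparison covered the remaining 10778 transcripts, of 9970 genes.

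A testis is mostly germ line, in which spermatogonia divide, pass through meiosis and differentiate into sperm, and in many animals it expresses many transcripts found in no other tissue. A retractor muscle pulls part of the body inwards and consists mainly of contractile cells, whose transcripts for actin, myosin and their regulators are shared with the other muscles of the body, such as those of the body wall. In bulk RNA, fewer cells of a type and less RNA per cell cannot be told apart. The deposited table gives transcript identifiers only. None of them, 0 of 31911, was found in the available gene table of the species, which lists 27038 genes, so that transcripts carry no gene names, positions or sequences here, and neither tissue label could be checked against markers.

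The 75 abundant transcripts accounted for 90.2% of all values in testis and 81.9% in retractor muscle, against 4.84% to 11.9% of the other 7 libraries. They were selected by their share in testis or retractor muscle, so the lower share in the other 7 follows in part from that selection. Of the 75, 35 were above 0.1% of both libraries, 8 of the testis alone and 32 of the retractor muscle alone. What was left summed to 12.0 M (M, 1000000) in testis and 10.2 M in retractor muscle, within the 8.98 to 13.2 M of the other 7, as the size factors align the typical transcript across libraries. The reads behind these sums were fewer, at about 2.18 M in testis and 3.72 M in retractor muscle, against 13.9 to 16.9 M in the others. A value of 100 corresponded to about 18.1 reads in testis, 36.4 in retractor muscle and 105 to 168 elsewhere. At the upper threshold the highest testis value kept was 111137 and the lowest set aside 134934, and in retractor muscle these were 56093 and 56697. At the lower threshold the higher of both values was 101 for the transcript just inside and 99.9 for the one just outside.

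Of the 10778 transcripts, 48.3% had a similar level in both tissues, and larger differences were found on both sides. The ratio was taken as log2((testis + 10)/(retractor muscle + 10)), where the added 10 damps the differences of low values. Its median was 0.09, its quartiles were -1.06 and 1.03, and its 5th and 95th percentiles were -3.94 and 2.83. Within 2-fold lay 5203 transcripts (48.3%). A difference of 2-fold or more was found for 2789 transcripts (25.9%) towards testis and for 2786 (25.8%) towards retractor muscle. A difference of 4-fold or more towards testis was found for 1102 transcripts (10.2%) and towards retractor muscle for 1670 (15.5%), called the testis side and the muscle side from here on. At 16-fold or more these counts were 211 (1.96%) in testis and 502 (4.66%) in retractor muscle. The balance rested on the scale. When both libraries were scaled to the same full sum, as in CPM, the testis side held 399 transcripts and the muscle side 3650, so that the testis share of both sides together was 9.85% instead of 39.8%.

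**Figure D1:**
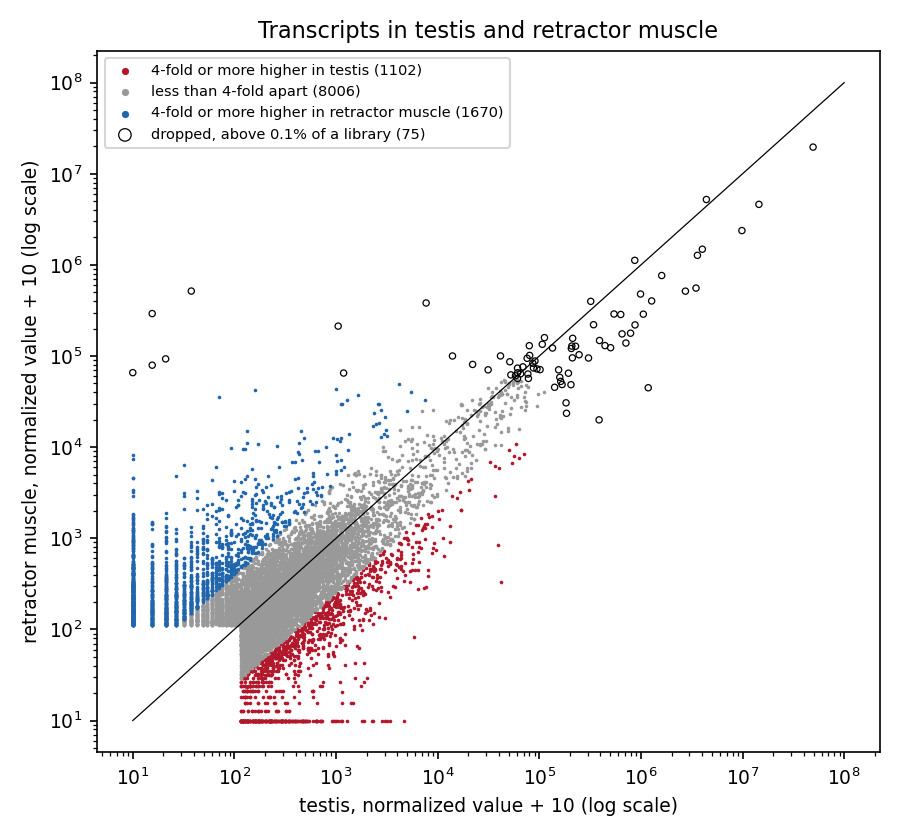
Each point is 1 transcript, with its normalized value + 10 in testis on the x axis and in retractor muscle on the y axis, both on log scales, coloured by the 4-fold sides. The line marks equal values, the open circles are the 75 transcripts set aside, and the 1102 transcripts of the testis side lie below the band of similar levels and the 1670 of the muscle side above it.

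The counting error behind these differences was given by the approximate reads, from which an exact 95% Clopper-Pearson interval was computed for the ratio of each transcript. It covers counting error only. Since the sides were defined by the same values at 4-fold, intervals that exclude equality follow almost of themselves. The whole interval lay beyond 4-fold for 739 (67.1%) of the testis side and 1094 (65.5%) of the muscle side. Of the 5203 transcripts within 2-fold, 2621 (50.4%) had an interval wholly within 2-fold.

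The counts of both sides varied with the level. The transcripts were divided into 6 bins of equal size by the mean of both libraries. In the lowest bin, with means of 50.6 to 104, the testis side held 257 transcripts (14.3%) and the muscle side 580 (32.3%). Transcripts with such low means passed the minimum of 100 mostly through the library where they were high, so that large differences in this bin follow in part from the minimum. In the highest bin, with means from 761 upwards, they held 243 (13.5%) and 220 (12.2%). In the 4 bins between, the testis side took 7.46% to 9.86% and the muscle side 10.5% to 14.9%. Among the 6538 transcripts that reached 100 in both libraries, 360 (5.51%) were on the testis side and 256 (3.92%) on the muscle side, an order that turned to 276 and 309 with equal sums of the remaining transcripts, 295 and 302 with the median of ratios of both libraries, and 71 and 853 with equal full sums. A further 1837 transcripts reached 100 in testis alone and 2403 in retractor muscle alone. Listed at 0 were 469 transcripts in testis and 223 in retractor muscle. As 1 read was worth 5.53 in testis and 2.75 in retractor muscle, low values were coarser in testis, and the part of this in the low-level counts was not tested.

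**Figure D2:**
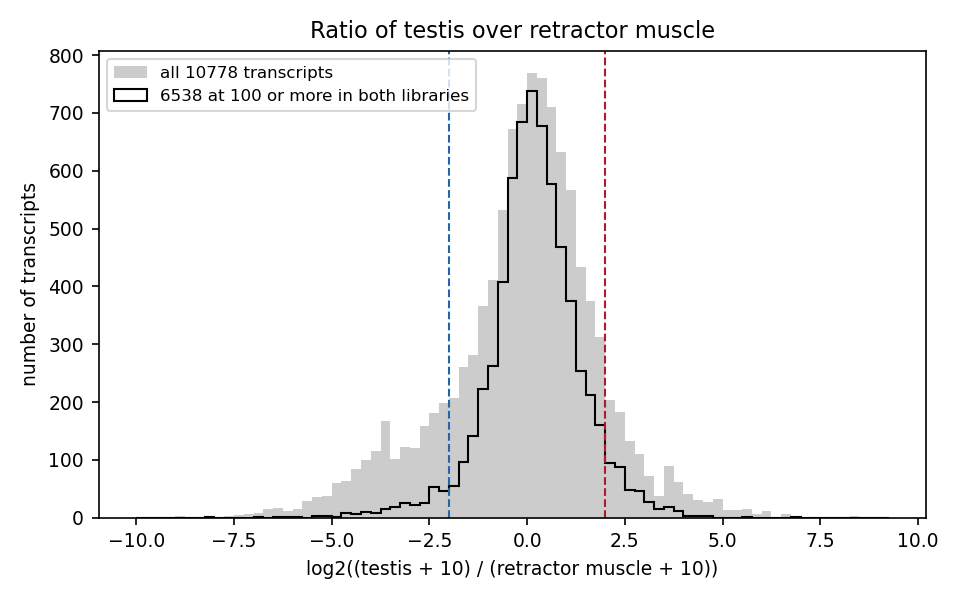
The number of transcripts is plotted against the log2 ratio of testis over retractor muscle, in grey for all 10778 transcripts and as a black outline for the 6538 at 100 or more in both libraries. The dashed lines mark 4-fold, and the grey distribution has its longer tail towards retractor muscle while the outline is narrower, with quartiles of -0.42 and 0.85.

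The testis side was made up mainly of transcripts with their peak in testis. For 750 of its 1102 transcripts (68.1%) the testis value was above that of all other 7 libraries, and for 284 (25.8%) the retractor muscle value was below all 7. On the muscle side the retractor muscle was above all 7 for 519 of 1670 transcripts (31.1%), and the testis was below all 7 for 612 (36.6%). On the deposited scale the muscle side thus held more transcripts low in testis against all other tissues than transcripts that peaked in the muscle. Of the 1670, 469 (28.1%) were listed at 0 in testis. There 1 read was worth 5.53, against 0.595 to 0.948 in the other 7 libraries, and the part of this in the 612 was not tested. Over all 10778 transcripts the testis was above all 7 for 23.0% and below all 7 for 11.4%, and the retractor muscle for 17.8% and 8.72%. Each side was defined by one of the values compared here, so these shares describe the sides and test nothing.

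Transcripts of the testis side were also found in fewer other tissues. Of the 1102, 271 (24.6%) were below 100 in all 7 other libraries, against 166 of 1670 (9.94%) on the muscle side and 170 of 5203 (3.27%) within 2-fold. Over all 10778 transcripts this share was 7.63%, close to that of the muscle side. The median number of the 7 libraries at 100 or more was 2 on the testis side, 4 on the muscle side, 7 within 2-fold and 5 over all. At the other extreme, 157 transcripts (14.2%) of the testis side, 207 (12.4%) of the muscle side and 2732 (52.5%) of those within 2-fold reached 100 in all 7, beside 36.8% of all transcripts. Only 360 of the 1102 and 256 of the 1670 reached 100 in both testis and retractor muscle. Most of each side thus passed the minimum through the library where it was high, and the part of this in the contrast with transcripts within 2-fold was not tested. The testis side kept the larger share below 100 in all 7 under each of the 12 alternative settings, although both shares moved.

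The share of each side that reached 100 differed between the other tissues. The testis side was below the share of all 10778 transcripts in each of the 7 libraries. In the head plus chaetae, 47.5% of the testis side and 70.8% of the muscle side reached 100, beside 70.0% of all 10778 transcripts. The body wall gave 41.8% and 63.1%, the head 40.5% and 62.9%, and the tail 38.2% and 63.1%, in the same order. For these 4 libraries the muscle side lay between 62.9% and 70.8%, beside 68.6% to 70.0% of all transcripts, and the testis side between 38.2% and 47.5%. The blood vessel showed the opposite order, with 42.1% of the testis side and 26.4% of the muscle side, beside 61.9% of all. The midgut had 46.3% of the testis side and 44.3% of the muscle side, beside 66.0% of all.

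The ovary, the other gonad, had 31.7% of the testis side at 100 or more, the lowest share of the 7 libraries, and 48.4% of the muscle side, both below the 63.8% of all 10778 transcripts. Its median was 43.7 on the testis side and 91.5 on the muscle side, beside 173 over all. Among transcripts within 2-fold the ovary median was 266. The class within 2-fold also had the highest median of the 7 classes in blood vessel (291), midgut (241), head (225), body wall (224) and tail (224). Only the head plus chaetae, at 210 within 2-fold, had higher ones elsewhere. These were 239 and 316, in transcripts 4 to 16-fold and 16-fold or more higher in retractor muscle.

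**Figure D3:**
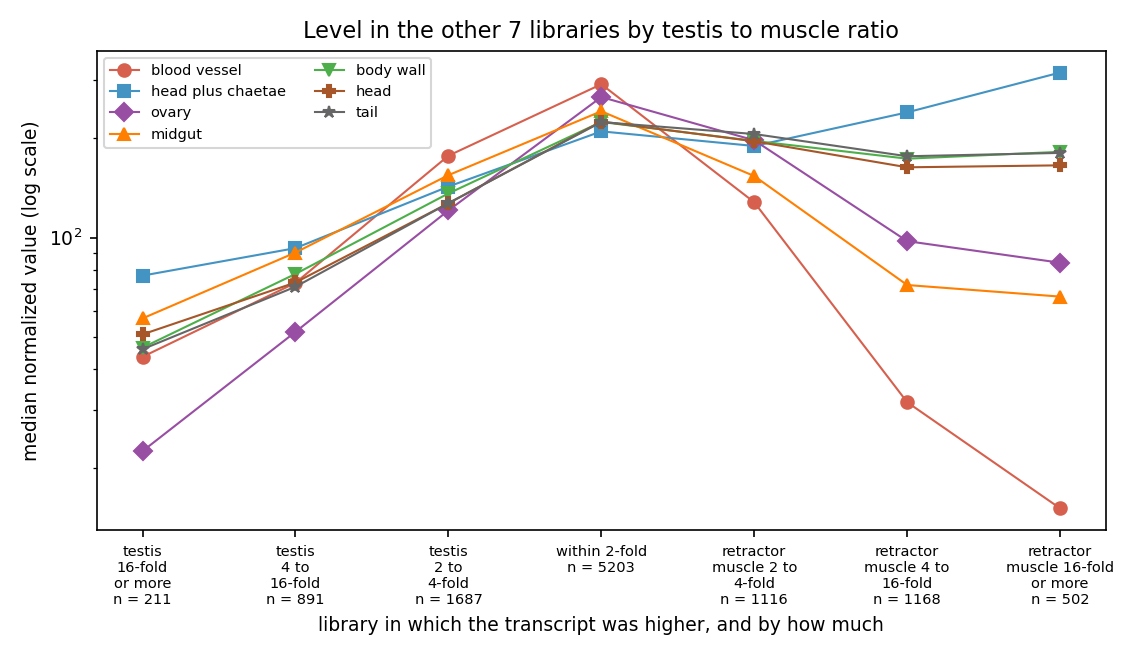
The median normalized value in each of the other 7 libraries (y axis, log scale) is plotted for 7 classes of transcripts, ordered along the x axis from those highest in testis to those highest in retractor muscle. The blood vessel falls to 15.1 in transcripts 16-fold or more higher in retractor muscle while the head plus chaetae reaches 316 there, and the ovary has the lowest point, 22.6, in transcripts 16-fold or more higher in testis.

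Along the classes of increasing difference the libraries separated further. Among the 211 transcripts 16-fold or more higher in testis, medians ran from 22.6 in the ovary to 76.7 in the head plus chaetae. Among the 502 that were 16-fold or more higher in retractor muscle, they ran from 15.1 in the blood vessel to 316 in the head plus chaetae, with 182 in the body wall, 180 in the tail and 165 in the head. Of the 211, the blood vessel was the highest of the 7 libraries for 43 (20.4%), the midgut for 41 (19.4%), the head plus chaetae and the head for 33 each (15.6%) and the ovary for 21 (9.95%). Of the 502, the head plus chaetae was the highest for 143 (28.5%) and the blood vessel for 35 (6.97%). Over all 10778 transcripts these shares were 23.3% for the blood vessel, 17.6% for the midgut, 14.6% for the head plus chaetae, 8.55% for the head and 19.0% for the ovary, so that blood vessel and midgut in the 211 were near the share over all transcripts.

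Where a transcript reached 100 in just 1 of the other 7 libraries, the most frequent such library differed between the sides. Over all 10778 transcripts there were 842 of this kind. On the testis side there were 182 such transcripts, of which 75 (41.2%) had the blood vessel as that library, 36 (19.8%) the head plus chaetae, 35 (19.2%) the midgut and 9 (4.95%) the ovary. On the muscle side there were 167, of which 52 (31.1%) had the head plus chaetae, 29 (17.4%) the midgut, 22 (13.2%) the head, 20 (12.0%) the blood vessel and 19 (11.4%) the ovary. The blood vessel was also the most frequent such library within 2-fold, with 89 of 221 (40.3%), so that its share on the testis side was close to that among transcripts of similar level.

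The largest difference towards testis was that of OFUSG10146.1. It had 4604 in testis, about 833 reads, and was listed at 0 in the other 8 libraries. Its ratio of 8.85 depends on the added 10 and is no bound, as the retractor muscle was at 0. The transcript is 1 of 4 isoforms of its gene, and the other 3 were read in the muscle at 270 to 1213. Summed over its isoforms, the gene had 20832 in testis, against 1919 in retractor muscle and at most 29.4, in the ovary, elsewhere, a log2 ratio of 3.43. The gene was thus highest in testis and present in muscle, and isoform OFUSG10146.1 alone was listed at 0 there.

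The next was OFUSG26263.2, with 3366 in testis, against 0 in retractor muscle. It had 13.2 in blood vessel, 1.20 in head plus chaetae, 3.41 in ovary and 7.19 in tail, and was listed at 0 in midgut, body wall and head. The 2 isoforms of its gene together had 3493 in testis and 2.76 in retractor muscle, or about 1 read. Here the gene and the isoform gave the same picture, a transcript read almost only in testis.

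**Figure D4:**
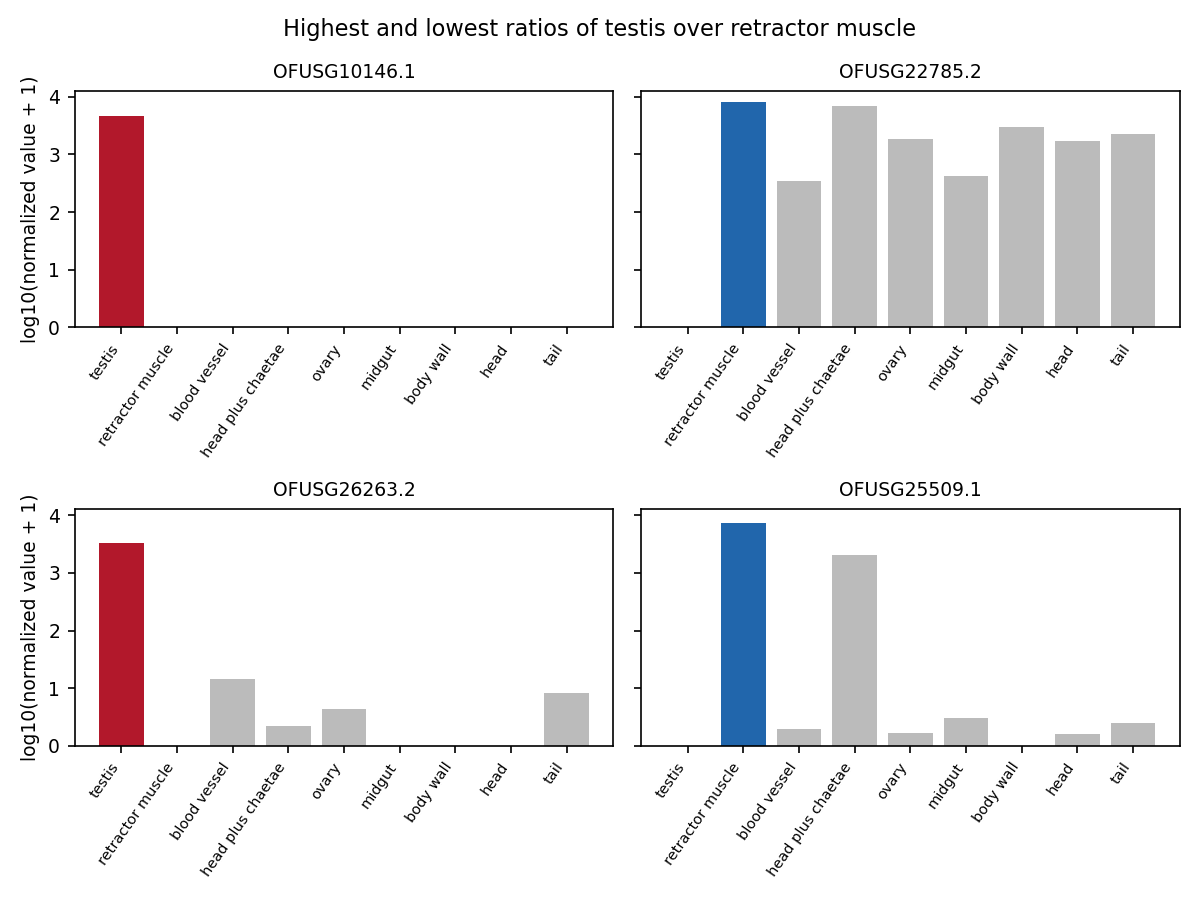
Bars give log10(normalized value + 1) in each of the 9 libraries for the 2 transcripts with the highest ratio of testis over retractor muscle (left) and the 2 with the lowest (right), with testis in red and retractor muscle in blue. The left pair has 4604 and 3366 in testis and at most 13.2 elsewhere, and on the right OFUSG22785.2 is present everywhere but in testis while OFUSG25509.1 is at 7322 in retractor muscle, 2020 in head plus chaetae and at most 1.99 elsewhere.

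The largest difference towards retractor muscle was that of OFUSG22785.2, with 0 in testis, against 8241 in retractor muscle, and a ratio of -9.69. It was present in each of the other 7 libraries, at 7094 in head plus chaetae, 3061 in body wall, 2242 in tail, 1877 in ovary, 1724 in head, 418 in midgut and 348 in blood vessel. Another isoform of the same gene had the reverse pattern, with 956 in testis, against 0 in retractor muscle. Summed over 5 isoforms the gene had 1575 in testis, against 12119 in retractor muscle, a log2 ratio of -2.94. The gene therefore kept its side, with a smaller difference than the single isoform.

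OFUSG25509.1, the only transcript of its gene in the table, came next, with 0 in testis, against 7322 in retractor muscle, about 2663 reads, and a ratio of -9.52. The head plus chaetae had 2020, and the other 6 libraries had at most 1.99, in the midgut. This transcript was thus high in 2 libraries, both labelled male, and near 0 in the others, among which the testis and the blood vessel are labelled male as well.

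Isoforms of 1 gene fell on different sides in a minority of genes. Among 694 genes with at least 2 isoforms in the comparison, 120 (17.3%) had an isoform on the testis side and another on the muscle side. For 74 of these 120 genes the sum of all isoforms was within 2-fold, and for 109 within 4-fold. Isoforms were all on the testis side in 24 genes and all on the muscle side in 41. The 8168 transcripts of genes with 1 transcript in the table had smaller differences, with 8.06% on the testis side and 13.8% on the muscle side. The 2610 transcripts of genes with more had 17.0% and 20.9%. Zeros were concentrated in the second set, where 11.5% were listed at 0 in testis and 7.70% in retractor muscle, against 2.06% and 0.269% in the first. Reads that fit several isoforms are divided among them by pseudo-alignment, and whether isoform use or this division gave the differences was not tested.

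Transcripts nearly absent from the other 7 libraries were mostly present in both tissues, as were the transcripts of the whole comparison. Of 129 transcripts at 100 or more in testis and below 10 in all 7 others, 88 (68.2%) also reached 100 in retractor muscle, and 23 (17.8%) were below 10 there. Conversely, of 109 transcripts at 100 or more in retractor muscle and below 10 in the 7 others, 88 (80.7%) reached 100 in testis, and 12 (11.0%) were below 10. Over all transcripts compared, 6538 of the 8375 at 100 or more in testis also reached 100 in retractor muscle. Of the 8941 at 100 or more in retractor muscle, the same 6538 reached 100 in testis. Reaching 100 in both tissues was thus common in the whole comparison as well. The share among the 129 was below that of the whole comparison, and the share among the 109 was above it. Each of the 7 other libraries was also put in turn in the place of the second tissue. Among transcripts at 100 or more in testis and below 10 in the remaining 7 libraries, the blood vessel reached 100 for 5 of 30, the midgut for 2 of 26, and head plus chaetae, ovary, body wall, head and tail for 0 of 23 to 28. Among those of the retractor muscle, the head plus chaetae did so for 3 of 24, the blood vessel for 2 of 17, and the other 5 libraries for 0 of 12 to 16. Each of these sets held the same 23 transcripts of testis, or 12 of retractor muscle, that were below 10 in every other library. Those could not reach 100, and the 88 were left out because the second tissue had to be below 10. The sets are therefore largely fixed by their definition and cannot be weighed against the 88. A value of 10 is about 1.81 reads in testis, 3.64 in retractor muscle and 10.5 to 16.8 in the 7 others. How these transcripts came to be in both libraries was not tested.

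The 88 shared transcripts were higher in testis for the most part. Their lowest, median and highest values were 182, 1592 and 60957 in testis, and 105, 473 and 38175 in retractor muscle, while the medians of the other 7 libraries lay between 0 and 1.80. Of the 88, 76 were higher in testis and 35 by 4-fold or more, whereas 0 were higher in retractor muscle by 4-fold and 5 by 2-fold. The log2 ratio had a median of 1.72, quartiles of 0.63 and 2.43 and a range of -1.58 to 4.53. Over all 6538 transcripts at 100 or more in both libraries the median was 0.19. With equal full sums, the scaling that lowered the testis most, these medians were 0.61 and -0.89, and 58 of the 88 were higher in testis. Together they made up 3.36% of the summed testis values of the comparison and 2.23% of those of the retractor muscle.

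**Figure D5:**
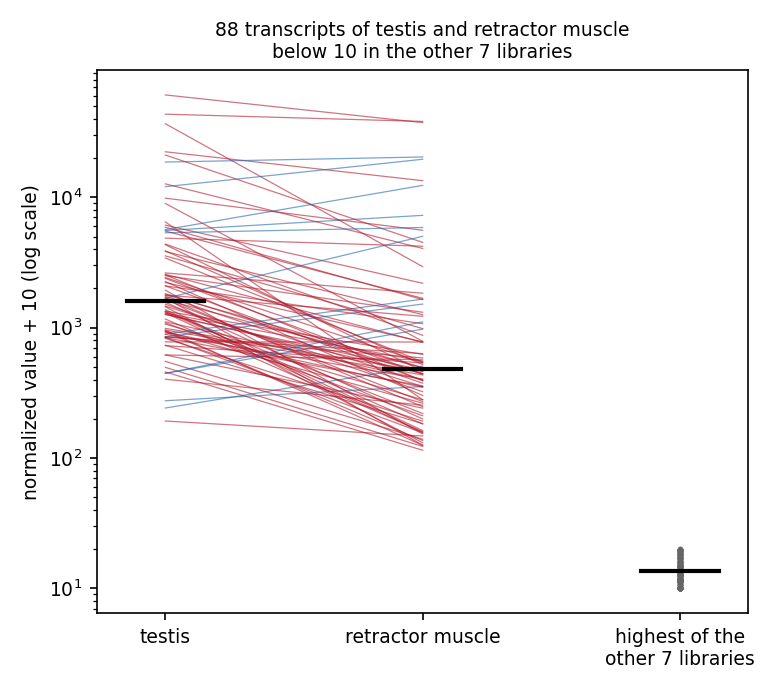
Each line joins the normalized value + 10 (log scale) of 1 of the 88 transcripts in testis and in retractor muscle, in red where testis was higher and blue where retractor muscle was, and grey points give the highest of the other 7 libraries. The black bars are medians, 1592 in testis and 473 in retractor muscle before the 10 was added, and 76 of the 88 lines go down from testis to retractor muscle.

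The pair was then placed among the 36 pairs of libraries, each treated by the same thresholds. The interquartile range of the log2 ratio was 2.09 for testis and retractor muscle, the tenth smallest of the 36, and 25.7% of transcripts were past 4-fold in either direction. Testis with any of the other 7 libraries gave 2.94 to 3.70 and 38.3% to 43.7%, so that the retractor muscle was the library least different from the testis by this measure. Retractor muscle with the other 7 gave 2.08 to 3.52, with the tail (2.08) and body wall (2.18) on either side of the testis. Over the 36 pairs the range went from 1.22 for body wall and tail to 4.55 for blood vessel and head plus chaetae. The number set aside was 75 here and 183 to 262 in the other pairs, since 0.1% is a higher value in libraries with larger sums.

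When the comparison was limited to transcripts at 100 or more in both members of a pair, the pair still had the smallest difference of those with testis, by less. The interquartile range was 1.26 for testis and retractor muscle, against 1.28 for testis and body wall, 1.30 to 1.41 for testis with tail, midgut, head and head plus chaetae, 1.70 with the ovary and 1.85 with the blood vessel. The share of transcripts that reached 100 in both libraries was 60.7% for testis and retractor muscle, against 46.5% to 51.3% for testis with the other 7.

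Across the 10778 transcripts, Spearman's rho was 0.45 between testis and retractor muscle, the highest for testis, followed by 0.40 with the blood vessel and 0.39 with the midgut. The retractor muscle had higher coefficients with 5 of the 7 other libraries than with the testis, namely 0.56 each with head plus chaetae and tail, 0.53 with body wall, 0.51 with head and 0.47 with ovary. This order was not stable. By Pearson's r of the log2 values, the retractor muscle had 0.493 with testis, 0.487 with head, 0.494 with ovary and 0.497 with body wall. These are correlations across transcripts, which are not independent replicates and were selected by their level in testis or retractor muscle. The part of that selection in the coefficients was not tested.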

How the data were processed

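RNA was measured by bulk RNA-seq in 9 adult libraries, 1 per tissue. According to the methods and processing notes, the authors trimmed reads with trimmomatic, pseudo-aligned them to their gene models with kallisto (version 0.44.0 in the notes) and normalized them with DESeq2 1.34.0 in R 4.1.2. Each deposited value is a signal, taken as the count of a transcript divided by the size factor of its library. A correction for transcript length may also be in the values. The value of 1 read was estimated as the least-squares step of values up to 20 reads. Within 0.1 read of a whole number lay 100% of these values in testis, 93.2% in retractor muscle and 96.1% to 99.8% elsewhere, so reads are approximate. They came to about 22.2 M (M, 1000000) in testis, 20.5 M in retractor muscle and 14.6 to 19.0 M in the others.

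Samples were grouped by their tissue labels. Because there is 1 library per tissue, no p-value was computed. Named transcripts are the 2 with the highest and the 2 with the lowest ratio. Other examples, and the sets below 10 elsewhere, were picked with their values in view. The transcripts compared and the thresholds were chosen with earlier results of these data known. Alternatives were pseudocounts of 1 and 50, minimums of 50, 200 and none, dominance thresholds of 0.05%, 1% and none, 3 other scalings and summed isoforms. Levels of 5, 20 and 50 elsewhere were tried in addition, once the data had been seen. The computation was tested on simulated data. Python 3.11.15, pandas 2.3.3, numpy 2.4.6, scipy 1.17.1 and matplotlib 3.10.9 were used.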

Additional observations from a re-analysis of the deposited data

How the results depend on the processing

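The centre of the distribution has no stable sign. The median log2 ratio of testis over retractor muscle, 0.09 as reported, was -0.00034 with a minimum of 50, -0.27 with no minimum, 0.17 with a minimum of 200, -1.20 with both libraries scaled to the same full sum, -0.19 with the same sum of the remaining transcripts and -0.15 with the median of ratios of these 2 libraries. The full-sum scaling left 399 transcripts on the testis side and 3650 on the muscle side. A pseudocount of 50 gave 638 and 959. The muscle side held 1070 transcripts with a minimum of 200 and 2998 with none. The counts were within 1.5 times the reported ones in 10 of 12 alternatives for the testis side and 8 of 12 for the muscle side, and the muscle side was the larger in all 12, although not among transcripts at 100 or more in both libraries, where the order turned with the scaling. The share of the testis side below 100 in all 7 other libraries ran from 20.7% to 32.5%, and that of the muscle side from 5.61% to 20.9%. The 4 named transcripts kept their side in all 12. With levels of 5, 20 or 50 in place of 10 elsewhere, 60.4% to 67.9% of testis transcripts nearly absent elsewhere reached 100 in retractor muscle, and 65.5% to 88.1% of those of the muscle did so in testis. The about 2.18 M testis reads outside the transcripts set aside limit what can be seen at low levels. No paired analysis was possible because each tissue has 1 library.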

Other observations

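The 75 transcripts set aside were not part of the comparison, but their ratios can be given beside it. The 35 that exceeded 0.1% of both libraries had a median log2 ratio of testis over retractor muscle of 1.40, with quartiles of 0.87 and 1.82 and a range of -0.37 to 2.65, and 32 of them were higher in testis. With equal full sums the median was 0.28 and 23 were higher in testis. On the deposited scale, of the 35, 6 were higher in testis by 4-fold or more and 0 higher in retractor muscle by 2-fold. On that scale 0.1% was 122592 in testis and 56452 in retractor muscle, so the lean of the 35 towards testis follows in part from the cut. The 88 less abundant transcripts found in both libraries and below 10 in the other 7 had a median of 1.72. They were chosen by another rule, and the 35 were looked at only after the 88 had been seen.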
